A study of Bos taurus with 9 samples.

Results

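The transcripts described here are those of 44 genes through which a cell takes up glucose and breaks it down: sugar transporters, the enzymes of glycolysis, lactate dehydrogenases and lactate transporters, the pentose phosphate pathway, the pyruvate dehydrogenase complex with its kinases, and the tricarboxylic acid (TCA) cycle. They were chosen by gene symbol for their place in these pathways, with earlier results of these data known, and all 44 were found among the 21512 genes of the deposited table. Each library is 1 whole bovine blastocyst at day 8 (D8) after in vitro fertilization: 5 wild type (WT_1 to WT_5) and 4 *TEAD4* -/- (TE_1 to TE_4, called KO). By the study's methods, KO embryos came from oocytes injected with *Cas9* mRNA and a guide RNA against an exon of *TEAD4* and carried frame-disrupting indels only. The WT embryos, defined there as those with no mutated allele, came from oocytes that received *Cas9* mRNA without a guide. Oocytes came from slaughterhouse ovaries, and all embryos were sired by the same bull and cultured in synthetic oviduct fluid with serum at low oxygen. The indels arose separately in each KO embryo, so the KO group is not 1 allele. Values are TPM, transcript abundances that are corrected for transcript length and scaled to sum to 1000000 in each library, so that levels of different genes can be compared. The study's discussion raises glycolysis because TEAD4 is reported to activate it in tumour cells, and the comparison of KO with WT asks whether these transcripts differ in the absence of TEAD4.

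Glucose enters cells through facilitative transporters of the SLC2A family and is trapped by hexokinase. Glycolysis first spends ATP to make triose phosphates and then regains it on the way to pyruvate. Pyruvate is reduced to lactate, which leaves the cell through SLC16A transporters, or enters mitochondria, where the pyruvate dehydrogenase complex turns it into the acetyl-CoA burned in the TCA cycle. The pentose phosphate pathway branches off at glucose-6-phosphate and supplies NADPH and ribose. In the early mammalian embryo pyruvate is the main fuel during cleavage, and glucose uptake and lactate release increase when the blastocyst forms.

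*TEAD4* itself was at 18.0, 52.5, 54.3, 36.5 and 43.4 TPM across WT_1 to WT_5 and 42.8, 41.8, 12.5 and 22.2 TPM across TE_1 to TE_4, a difference within the spread between embryos (log2 fold change of −0.51 with a standard error of 0.42, adjusted p = 0.947 from limma); a transcript with an indel counts in TPM like an intact one. Between 14776 and 16678 genes were above 0 TPM per library. The read depth behind a value is not kept in TPM, so no counting interval is given. Median-of-ratios size factors of the libraries, which are near 1 where most genes are at their usual level, were between 0.973 and 1.12 in WT and at 0.776, 1.26, 0.966 and 1.05 in TE_1 to TE_4, so that most genes were low in TE_1 and high in TE_2. Trophectoderm markers (*CDX2*, *GATA3*, *GATA2*, *KRT8*, *KRT18*) and *POU5F1* were found in every library; the inner cell mass marker *NANOG* was at only 0.127 TPM in WT_1. Of 8 markers of cumulus and granulosa cells, which surround the oocyte, *FSHR* was at 1.36 to 26.8 TPM and none of the other 7 exceeded 3.05 TPM in any library.

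No transcript of the 44 passed the test for a difference between KO and WT blastocysts. The 7 with the clearest differences relative to their error were all at lower means in KO: the glycolytic enzymes *TPI1*, *GAPDH*, *PGK1*, *ENO1* and *PKM*, the lactate dehydrogenase *LDHA* and the mitochondrial *IDH2*. Of these, *LDHA* averaged 469 ± 161 TPM in the WT embryos (SD, n = 5) and 223 ± 119 TPM in the KO embryos (SD, n = 4) and *PKM* 766 ± 199 TPM in the WT embryos (SD, n = 5) and 429.7 ± 226 TPM in the KO embryos (SD, n = 4). Median log2 fold changes were −0.52 over the 16 glycolytic genes, −0.019 over the 5 pentose phosphate genes and −0.17 over the 9 TCA cycle genes.

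All 44 genes had a median above 0.1 TPM and entered the fit with limma, a linear model on log2(TPM + 1) over the 14599 genes above that level, with Benjamini-Hochberg adjustment of the p-values over all of them. A negative log2 fold change means a lower mean in KO. A gene was called when its adjusted p was under 0.05 and its log2 fold change beyond 1 in either direction, which 0 of the 44 and 0.0205% of all genes tested reached; the smallest adjusted p among the 44 was 0.624 (*LDHA*). An unadjusted p under 0.05 from limma was reached by 7 of the 44, all 7 with lower means in KO, against 3.83% of all genes tested that did so with lower means and 2.07% with higher means in KO. Over both directions, an unadjusted p under 0.05 was reached by 15.9% of the 44 and 5.90% of all genes tested. The number of members was 3 with size factors (6.82%), near the 6.53% of all genes tested. It was 5 after quantile normalization (11.4%, against 6.88%). With 1 embryo left out it ran from 4 without WT_5 (9.09%, against 3.99%) to 9 without WT_4 (20.5%, against 5.65%). In none of the 44 did the values of the 4 KO embryos lie wholly outside those of the 5 WT embryos, which was so in 2.03% of all genes tested. The mean of log2(TPM + 1) was lower in KO for 35 of the 44 genes, 79.5%, and for 55.8% of all genes tested. Divided by size factors the count was 29 of 44 (65.9%, against 50.8% of all genes). Without TE_4 it was 40 (90.9%, against 56.8% of all genes). It was 26 (59.1%) without TE_1, against 45.7% of all genes, and also 26 without TE_3, against 54.6%. After quantile normalization it was 35 of 44, against 47.8% of all genes. The median log2 fold change of the 44 was −0.22, and that of all genes tested −0.046. For 19 of the 44 the 95% interval of the difference lay between −1 and 1; for the others a log2 difference of 1 in at least 1 direction was not outside it.

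**Figure D1:**
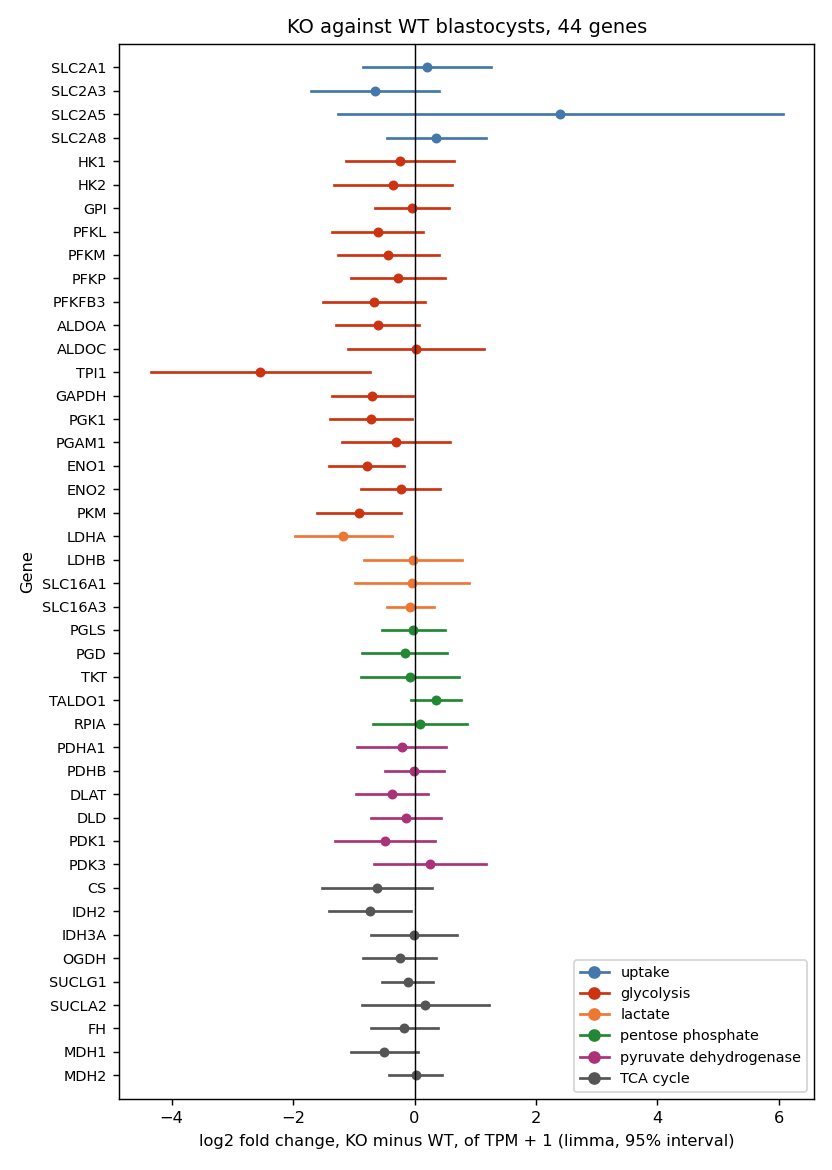
Log2 fold change (KO minus WT, on the scale of TPM + 1) of each of the 44 genes on the horizontal axis, coloured by pathway; points are estimates from limma and lines their 95% intervals, from 5 WT and 4 KO blastocysts. The intervals of *TPI1*, *GAPDH*, *PGK1*, *ENO1*, *PKM*, *LDHA* and *IDH2* lie below 0 before adjustment for multiple testing, and that of *SLC2A5* is the widest.

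Levels of the sugar transporters varied widely among WT embryos, and 3 of the 4 had a higher mean of log2(TPM + 1) in KO. The median log2 fold change of the 4 was 0.29, and −0.04 without WT_4. *SLC2A3*, a high-affinity neuronal-type glucose transporter, was at 884, 607, 369, 132 and 466 TPM across WT_1 to WT_5 and 171, 279.9, 211 and 475 TPM across TE_1 to TE_4. It averaged 491 ± 279.6 TPM in the WT embryos (SD, n = 5) and 284 ± 135 TPM in the KO embryos (SD, n = 4), with WT_1 highest and WT_4 lowest of all 9 and every KO embryo within the WT range (log2 fold change of −0.65 with a standard error of 0.48, 95% interval from −1.70 to 0.40). *SLC2A1*, the widespread basal glucose transporter, was at 131, 177, 132, 41.8 and 214 TPM across WT_1 to WT_5 and 90.6, 243, 80.1 and 229 TPM across TE_1 to TE_4, so that WT_4 was lowest and TE_2 and TE_4 were above every WT embryo. Its log2 fold change of 0.21 was −0.17 without WT_4 and 0.48 without TE_3. *SLC2A8*, an intracellular sugar transporter, showed the same order of extremes, with 21.9 to 62.5 TPM in WT and 34.9 to 91.0 TPM in KO (log2 fold change of 0.36 with a standard error of 0.37).

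*SLC2A5*, the fructose transporter, was close to absent from a pair of WT embryos and abundant in every other embryo. It was at 0.685, 738, 146, 0.571 and 345 TPM across WT_1 to WT_5 and 157, 286, 214 and 199 TPM across TE_1 to TE_4. WT_1 and WT_4 were thus 212-fold or more below the lowest of the other 7 libraries, while the KO embryos varied only 1.82-fold among themselves. For *SLC2A5* this was a log2 fold change of 2.40 with a standard error of 1.68, for which limma gave an adjusted p of 0.929 and the exact permutation test (two-sided) p = 0.397. The estimate was 1.24 without WT_4 and 3.46 without WT_2. WT_1 and WT_4 did not share the levels of the other transporters: *SLC2A3* was highest of all libraries in WT_1 and lowest of all in WT_4. WT_4 was also lowest of all 9 embryos in *SLC2A1*, *SLC2A8* and the monocarboxylate transporter *SLC16A1*. Its summed trophectoderm markers, at 3895 TPM, were below those of the other WT (7406 to 17759.7 TPM) and the KO embryos (6427 to 12164 TPM). That sum was mostly *KRT8* and *KRT18*, at 2721 and 1108 TPM in WT_4. *CDX2* was also lowest there, at 17.1 TPM, but *GATA3* and *GATA2* were lower in TE_4 (11.4 and 23.7 TPM) than in WT_4 (14.4 and 34.6 TPM). WT_1, the other embryo almost without *SLC2A5*, had the highest sum. *NANOG* and *SOX2* were highest in WT_4, at 262 and 90.4 TPM, but its *POU5F1*, at 1693 TPM, was below TE_2 (2142 TPM) and TE_4 (1903 TPM). In whole blastocysts fewer cells of a lineage and less transcript per cell cannot be told apart, and the part of these markers in the transporter levels was not tested.

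**Figure D2:**
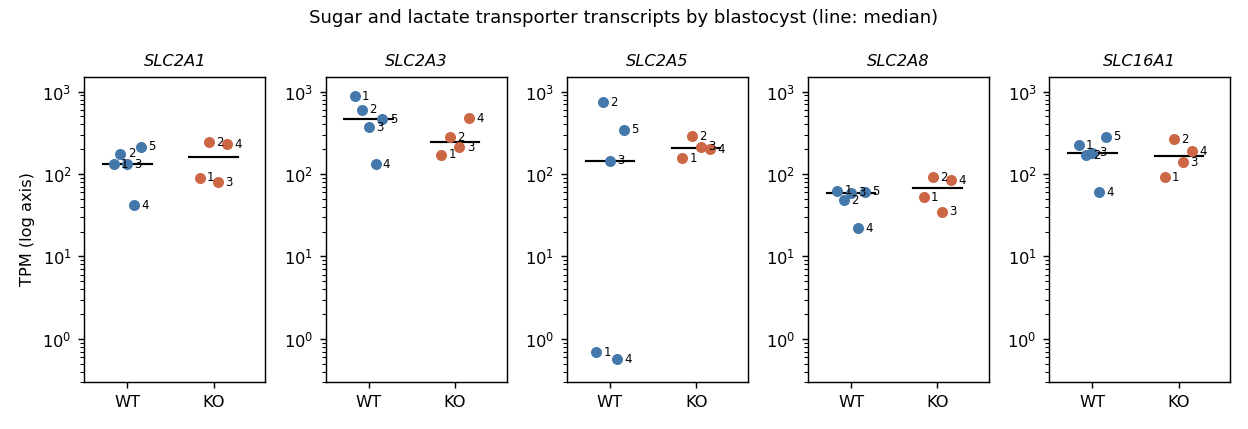
TPM of 4 sugar transporters and the lactate transporter *SLC16A1* on a log axis in each of 5 WT (blue) and 4 KO (orange) blastocysts, with the number of the library beside each point and a line at the median. *SLC2A5* is at 0.685 and 0.571 TPM in WT_1 and WT_4 and at 146 TPM or more in the other 7 embryos, and WT_4 is the lowest point in every panel.

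The steps from glucose to triose phosphates had lower means in KO for 8 of 9 genes, with none past an unadjusted p of 0.05, and the median log2 fold change was −0.36 (0.017 without TE_1 and −0.65 without TE_2). Hexokinase, which phosphorylates glucose, was present as *HK1* and *HK2*. *HK1* was at 13.2, 11.0, 15.97, 14.4 and 13.6 TPM across WT_1 to WT_5 and 4.97, 27.5, 7.94 and 13.9 TPM across TE_1 to TE_4. The WT embryos lay within a 1.45-fold range and the KO embryos within a 5.52-fold range, with TE_1 and TE_3 below and TE_2 above every WT embryo. *HK2*, the insulin-regulated form of muscle, was at 35.3, 25.5, 19.6, 11.5 and 24.7 TPM across WT_1 to WT_5 and 6.35, 31.4, 15.0 and 25.7 TPM across TE_1 to TE_4, with TE_1 alone below every WT embryo. The log2 fold changes of −0.24 for *HK1* and −0.36 for *HK2* turned to 0.10 and 0.066 without TE_1. *GPI*, which turns glucose-6-phosphate into fructose-6-phosphate, averaged 214 and 212 TPM in WT and KO.

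Phosphofructokinase, the committed step of glycolysis, was almost wholly the liver-type subunit *PFKL*, at 74.1, 54.2, 48.0, 30.6 and 71.7 TPM across WT_1 to WT_5 and 24.0, 54.9, 45.9 and 23.3 TPM across TE_1 to TE_4. TE_1 and TE_4 were below every WT embryo, and TE_2 and TE_3 were inside the WT range (log2 fold change of −0.61 with a standard error of 0.34, 95% interval from −1.36 to 0.14). The muscle-type *PFKM* averaged 2.12 and 1.22 TPM and the platelet-type *PFKP* 1.90 and 1.43 TPM. *PFKFB3*, which makes a strong activator of phosphofructokinase, was at 10.4, 8.89, 4.02, 4.39 and 6.15 TPM across WT_1 to WT_5 and 2.57, 7.39, 3.37 and 2.53 TPM across TE_1 to TE_4. In 3 of 4 KO embryos, all but TE_2, it was below every WT embryo. By limma the log2 fold change of *PFKFB3* was −0.67, its standard error 0.38 and its adjusted p 0.897, and by the exact permutation test (two-sided) p was 0.119. *ALDOA*, the main aldolase, was at 880.3, 1328, 709.8, 576 and 1378 TPM across WT_1 to WT_5 and 561, 714, 852 and 389.7 TPM across TE_1 to TE_4, with TE_1 and TE_4 below every WT embryo (log2 fold change of −0.61 with a standard error of 0.31). *ALDOC*, the brain-type aldolase, ranged from 6.10 to 37.7 TPM in WT and from 7.94 to 27.4 TPM in KO, and its log2 fold change of 0.024 was −0.27 without TE_4 and 0.36 without WT_3.

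From triose phosphates to pyruvate, 7 of 7 genes had lower means in KO, 5 of them with an unadjusted p under 0.05 from limma, and the median log2 fold change was −0.72. This boundary within glycolysis is not the textbook one between spending and regaining ATP, which places *TPI1* in the first part. *TPI1* is among the 5. The boundary was applied after the values had been seen. The values of these 7 genes as a group are thus a description with no test. The median was −0.66 with size factors and −0.76 after quantile normalization, and between −0.87 (without TE_4) and −0.61 (without WT_5) when 1 embryo was left out. The number with an unadjusted p under 0.05 was 2 with size factors and 2 without TE_2, beside 6.53% and 8.42% of all genes tested. Transcripts of the 7 genes together made up 0.555% ± 0.143 of all TPM in WT (SD, n = 5) and 0.353% ± 0.0918 in KO (SD, n = 4). Their sum was 5172, 5436, 4486, 4622 and 8015 TPM across WT_1 to WT_5 and 3217, 2941, 3076 and 4899.9 TPM across TE_1 to TE_4. TE_1, TE_2 and TE_3 were below every WT embryo, and TE_4 was inside the WT range.

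*TPI1*, which interconverts the triose phosphates, had the largest negative log2 fold change of the 44 genes. It was at 202, 85.3, 99.0, 127 and 217 TPM across WT_1 to WT_5 and 58.9, 14.6, 108 and 2.04 TPM across TE_1 to TE_4. TE_4 and TE_2 were far below the other embryos, TE_1 was below every WT embryo and TE_3 was inside the WT range. The lowest WT embryo was 41.7-fold above TE_4, in which the neighbouring enzymes *ALDOA* and *GAPDH* were at 389.7 and 1995 TPM. The fold change of *TPI1* was −2.54 on the log2 scale, with a standard error of 0.83 and an adjusted p of 0.643 from limma, and the exact permutation test (two-sided) gave p = 0.0238. The estimate was −3.28 without TE_3 and −1.56 without TE_4.

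*GAPDH*, which oxidizes glyceraldehyde-3-phosphate, was at 2069.7, 2575, 1882, 1408 and 3858 TPM across WT_1 to WT_5 and 1536, 1185, 982 and 1995 TPM across TE_1 to TE_4. WT_5 was highest, and TE_2 and TE_3 were below every WT embryo. For *GAPDH* this was a log2 fold change of −0.69 with a standard error of 0.31, for which limma gave an adjusted p of 0.827 and the exact permutation test (two-sided) p = 0.0873. *PGK1*, which makes the first ATP, was at 258, 243, 349.5, 365 and 448 TPM across WT_1 to WT_5 and 116, 155, 299 and 275 TPM across TE_1 to TE_4. TE_1 and TE_2 were below every WT embryo and TE_3 and TE_4 inside the WT range. By limma the log2 fold change of *PGK1* was −0.72, its standard error 0.31 and its adjusted p 0.812, and by the exact permutation test (two-sided) p was 0.0794. Without TE_1 the log2 fold change of *PGK1* was −0.47.

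*PGAM1*, the mutase between phosphoglycerate kinase and enolase, did not share this pattern: it was at 548, 724, 562, 837 and 845 TPM across WT_1 to WT_5 and 408, 702, 247 and 1359 TPM across TE_1 to TE_4, with TE_4 the highest and TE_3 the lowest of all embryos. Its log2 fold change of −0.31 was −0.74 without TE_4 and 0.079 without TE_3. *ENO1*, the main enolase, was at 1111, 1039, 961, 1371 and 1711 TPM across WT_1 to WT_5 and 823, 504, 1139 and 507 TPM across TE_1 to TE_4. TE_1, TE_2 and TE_4 were below every WT embryo and TE_3 was inside the WT range. The fold change of *ENO1* was −0.79 on the log2 scale, with a standard error of 0.28 and an adjusted p of 0.720 from limma, and the exact permutation test (two-sided) gave p = 0.0476. The neuronal enolase *ENO2* was under 1.84 TPM in all embryos but WT_3, where it was at that level. *PKM*, the pyruvate kinase that ends glycolysis, was at 982, 769, 631, 513 and 936 TPM across WT_1 to WT_5 and 276, 379.6, 301 and 762 TPM across TE_1 to TE_4. Here TE_4 was inside the WT range, and TE_1, TE_2 and TE_3 were below every WT embryo. For *PKM* this was a log2 fold change of −0.92 with a standard error of 0.31, for which limma gave an adjusted p of 0.684 and the exact permutation test (two-sided) p = 0.0476. Copies of several of these genes exist as processed pseudogenes in mammals, and how pseudoalignment divided reads among such copies is not known, so single values are uncertain to that extent.

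**Figure D3:**
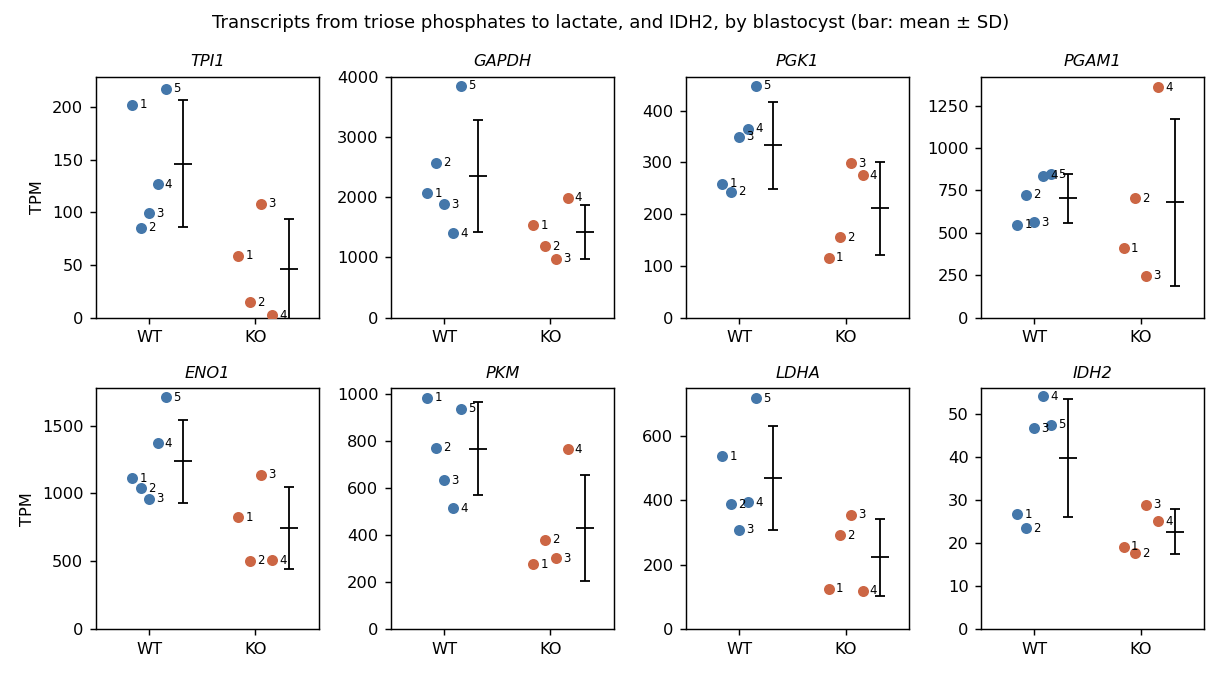
TPM of 6 glycolytic genes, *LDHA* and *IDH2* in each of 5 WT (blue) and 4 KO (orange) blastocysts, with the number of the library beside each point and the mean ± SD as a bar, which is cut at 0 for *TPI1* in KO. In every panel at least 1 KO embryo lies within the WT range, TE_3 in *TPI1*, *ENO1* and *LDHA* and TE_4 in *PKM*.

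Lactate dehydrogenase has an A subunit, which prevails where pyruvate is reduced to lactate, and a B subunit, which prevails in oxidative tissues. *LDHA* was at 537, 387, 309, 394 and 717 TPM across WT_1 to WT_5 and 125, 291, 355 and 119 TPM across TE_1 to TE_4. TE_1 and TE_4 were the lowest, TE_2 was just below and TE_3 just above the lowest WT embryo, WT_3. By limma the log2 fold change of *LDHA* was −1.18, its standard error 0.37 and its adjusted p 0.624, and by the exact permutation test (two-sided) p was 0.0238. The log2 fold change of *LDHA* was −1.45 without TE_3 and −0.93 without TE_4; without TE_3, and also without WT_3, the values of KO and WT embryos did not overlap. *LDHB* was at 429.7, 438, 528, 695 and 547 TPM across WT_1 to WT_5 and 493, 627, 213 and 1024 TPM across TE_1 to TE_4, with TE_3 the lowest and TE_4 the highest of all embryos. Its log2 fold change of −0.027 was −0.36 without TE_4 and 0.39 without TE_3. The summed TPM of both subunits was 967, 825, 837, 1089.8 and 1264 TPM across WT_1 to WT_5 and 618, 918, 569 and 1143 TPM across TE_1 to TE_4.

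The share of *LDHB* in the summed TPM of *LDHA* and *LDHB* does not depend on the scaling of a library. It was 44.4, 53.0, 63.1, 63.8 and 43.3% across WT_1 to WT_5 and 79.7, 68.3, 37.5 and 89.6% across TE_1 to TE_4. TE_1, TE_2 and TE_4 were above and TE_3 below every WT embryo. The mean share was 53.5 ± 9.82% in the WT embryos (SD, n = 5) and 68.8 ± 22.6% in the KO embryos (SD, n = 4) (two-sided exact permutation p = 0.214). This was a difference of 15.3 percentage points that was 25.7 without TE_3 and 8.31 without TE_4. Of the lactate transporters, *SLC16A1* averaged 183 and 171 TPM in WT and KO and *SLC16A3*, the exporter of strongly glycolytic cells, 0.910 and 0.810 TPM.

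Shares of this kind were computed for 11 isoforms of 9 steps, and none passed after adjustment over the 11 (smallest adjusted p = 0.175, exact permutation tests, two-sided). In none of them did the KO and WT values lie wholly apart. The share of *SLC2A3* in the sum of *SLC2A1* and *SLC2A3* was 87.1, 77.5, 73.7, 75.9 and 68.5% across WT_1 to WT_5 and 65.4, 53.6, 72.5 and 67.4% across TE_1 to TE_4. TE_1, TE_2 and TE_4 were below every WT embryo, and the mean was 76.5% ± 6.81 among the WT (SD, n = 5) and 64.7% ± 8.03 among the KO embryos (SD, n = 4) (two-sided exact permutation p = 0.0317). The share of *MDH2* in the sum of cytosolic *MDH1* and mitochondrial *MDH2*, malate dehydrogenases that also work in the malate-aspartate shuttle, was 53.6, 54.8, 52.1, 55.6 and 56.0% across WT_1 to WT_5 and 68.3, 55.3, 67.8 and 60.2% across TE_1 to TE_4. The WT embryos lay within a few percentage points of each other, TE_1, TE_3 and TE_4 were above all of them and TE_2 was inside their range. The mean was 54.4% ± 1.59 among the WT (SD, n = 5) and 62.9% ± 6.31 among the KO embryos (SD, n = 4) (two-sided exact permutation p = 0.0238).

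The other shares overlapped widely. Of hexokinase transcripts *HK2* made up 61.3% ± 11.6 among the WT (SD, n = 5) and 59.9% ± 6.12 among the KO embryos (SD, n = 4). Of phosphofructokinase transcripts *PFKL* made up 92.2% ± 5.997 among the WT (SD, n = 5) and 92.7% ± 3.61 among the KO embryos (SD, n = 4), *PFKM* 4.16% ± 3.54 among the WT (SD, n = 5) and 3.89% ± 3.25 among the KO embryos (SD, n = 4) and *PFKP* 3.62% ± 2.53 among the WT (SD, n = 5) and 3.41% ± 1.73 among the KO embryos (SD, n = 4). The minor isoforms *ALDOC*, *ENO2* and *SLC16A3* averaged under 3% of aldolase, enolase and lactate transporter transcripts in both genotypes. The share of *PDK3* among pyruvate dehydrogenase kinases was 38.3, 31.6, 71.6, 72.1 and 34.0% across WT_1 to WT_5 and 49.0, 62.2, 81.6 and 54.8% across TE_1 to TE_4. WT embryos themselves fell to either side of an even share there, WT_3 and WT_4 far above WT_1, WT_2 and WT_5.

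**Figure D4:**
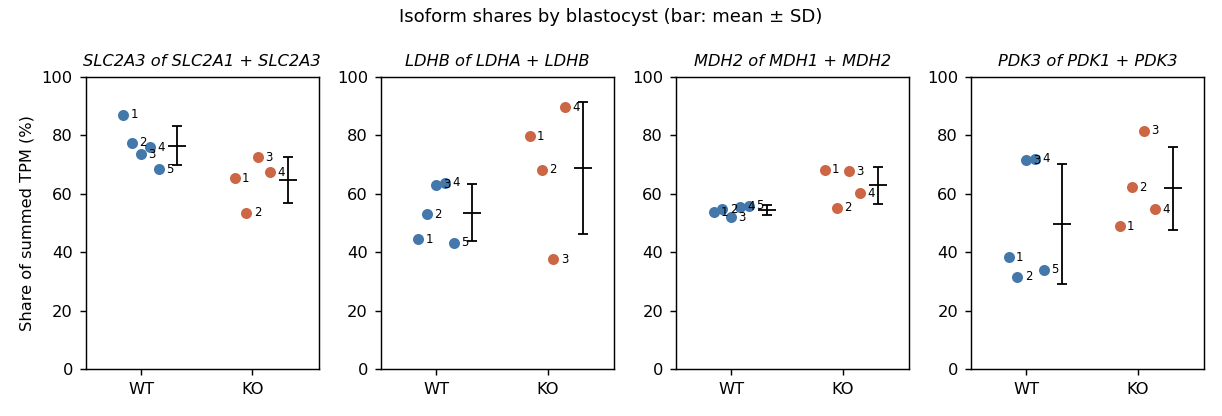
Share of 1 isoform in the summed TPM of its isoforms, in percent, for each of 5 WT (blue) and 4 KO (orange) blastocysts, with the number of the library beside each point and the mean ± SD as a bar. The share of *MDH2* is between 52.1% and 56.0% in WT and reaches 68.3% in KO, and that of *LDHB* spreads from 37.5% to 89.6% in KO.

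The pentose phosphate genes had a median log2 fold change of −0.019, which was 0.039 with size factors, 0.29 without TE_3 and −0.27 without TE_4, and all 5 of their 95% intervals lay between −1 and 1. *TALDO1*, the transaldolase of the non-oxidative arm, was at 696, 584, 749.8, 616 and 661 TPM across WT_1 to WT_5 and 676, 826, 879 and 1025 TPM across TE_1 to TE_4. TE_2, TE_3 and TE_4 were above every WT embryo and TE_1 was inside the WT range. The fold change of *TALDO1* was 0.35 on the log2 scale, with a standard error of 0.19 and an adjusted p of 0.891 from limma, and the exact permutation test (two-sided) gave p = 0.0397. Its 95% interval ran from −0.06 to 0.77. The transketolase *TKT* was at 97.8, 132, 220.0, 146 and 159 TPM across WT_1 to WT_5 and 116, 207, 64.3 and 237 TPM across TE_1 to TE_4, and *RPIA*, which isomerizes ribose-5-phosphate, at 217, 322, 398, 274 and 247 TPM across WT_1 to WT_5 and 283, 301, 154 and 653 TPM across TE_1 to TE_4. Both had their lowest value in TE_3 and their highest in TE_4. The same was true of *PGD*, the NADPH-producing phosphogluconate dehydrogenase, at 158 to 265 TPM in WT and 97.3 to 332 TPM in KO. *PGLS*, the lactonase before it, averaged 56.3 and 55.1 TPM in WT and KO.

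Among the subunits of the pyruvate dehydrogenase complex, *PDHA1* (E1 alpha) was at 73.5, 70.5, 63.1, 58.0 and 62.7 TPM across WT_1 to WT_5 and 25.4, 101, 56.4 and 68.6 TPM across TE_1 to TE_4. The WT embryos lay within a 1.27-fold range, TE_1 and TE_3 were below and TE_2 above all of them (log2 fold change of −0.21 with a standard error of 0.34). *PDHB* (E1 beta) averaged 421 and 422 TPM in WT and KO, *DLAT* (E2) 33.6 and 26.2 TPM and *DLD* (E3) 199 and 188 TPM. The kinases that switch the complex off were *PDK1*, at 25.97, 24.7, 13.3, 14.8 and 30.2 TPM across WT_1 to WT_5 and 13.4, 25.3, 7.22 and 17.9 TPM across TE_1 to TE_4, and *PDK3*, at 11.4 to 38.2 TPM in WT and 12.8 to 41.7 TPM in KO. *PDK1* had the largest difference of this group (log2 fold change of −0.48 with a standard error of 0.38, 95% interval from −1.31 to 0.34), which was −0.18 without TE_3.

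In the TCA cycle 7 of 9 genes had lower means in KO, with a median log2 fold change of −0.17. The median was −0.074 without TE_1, −0.079 without WT_1 and −0.29 without TE_2, and 9 of 9 means were lower in KO without TE_4. *IDH2*, the mitochondrial NADP-dependent isocitrate dehydrogenase, was at 26.7, 23.5, 46.8, 54.2 and 47.7 TPM across WT_1 to WT_5 and 19.1, 17.6, 28.9 and 25.1 TPM across TE_1 to TE_4. TE_1 and TE_2 were below every WT embryo, TE_3 and TE_4 were between WT_2 and WT_3. For *IDH2* this was a log2 fold change of −0.74 with a standard error of 0.31, for which limma gave an adjusted p of 0.797 and the exact permutation test (two-sided) p = 0.0714. *IDH3A*, a subunit of the NAD-dependent enzyme of the cycle, was at 363, 517, 405, 366 and 378 TPM across WT_1 to WT_5 and 282, 535, 227 and 739 TPM across TE_1 to TE_4, and *SUCLA2*, of the ATP-forming succinate-CoA ligase, at 149, 139, 157, 129 and 122 TPM across WT_1 to WT_5 and 86.8, 307, 59.0 and 379.6 TPM across TE_1 to TE_4. In both, TE_1 and TE_3 were below and TE_2 and TE_4 above every WT embryo. In *SUCLA2* the WT embryos spanned a 1.28-fold and the KO embryos a 6.43-fold range.

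*CS*, the citrate synthase that opens the cycle, was at 180.5, 217, 151, 62.4 and 159 TPM across WT_1 to WT_5 and 137, 113, 40.4 and 116 TPM across TE_1 to TE_4, lowest in TE_3 and next lowest in WT_4 (log2 fold change of −0.62 with a standard error of 0.42). *OGDH*, of the oxoglutarate dehydrogenase complex, averaged 9.79 and 8.05 TPM in WT and KO, *SUCLG1*, the shared subunit of succinate-CoA ligase, 285 and 266 TPM, and the fumarase *FH* 264 and 239.8 TPM. *MDH1* was at 725, 1014, 803, 732 and 788 TPM across WT_1 to WT_5 and 450.1, 734, 389 and 827 TPM across TE_1 to TE_4, with TE_1 and TE_3 below every WT embryo (log2 fold change of −0.50 with a standard error of 0.25). *MDH2* averaged 972 and 987 TPM, with a 95% interval of the log2 fold change from −0.42 to 0.46.

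Seen by embryo, the KO group was not uniform. TE_1 was below every WT embryo in 21 of the 44 genes and TE_3 also in 21, but TE_2 in 8 and TE_4 in 6. TE_4 was above every WT embryo in 15 and TE_2 in 10 genes, against 1 in TE_3 and 0 in TE_1. The 17 genes that were lowest of all 9 embryos in TE_3 were mostly those of the pentose phosphate pathway and the mitochondrial steps, whereas the 8 that were lowest in TE_1 included *HK1*, *HK2*, *GPI*, *PGK1* and *PKM*. The 5 that were lowest in TE_4 were *PFKL*, *PFKFB3*, *ALDOA*, *TPI1* and *LDHA*, although 13 others were highest of all in that embryo. Such counts were not made over all genes tested, so how far they are particular to the 44 genes is not known.

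The median log2 difference of the 44 genes from the WT mean was −0.567, 0.0267, −0.388 and 0.0679 in TE_1 to TE_4, beside −0.303, 0.192, −0.0793 and −0.0121 for all genes tested. In each WT embryo, set against the other 4, it was between −0.129 and 0.199. For the low level of TE_1, the part of its low size factor was not tested. Of the 8 genes from *TPI1* to *PKM* plus *LDHA*, the number below the WT mean was 8, 7, 7 and 6 in TE_1 to TE_4. In WT_1 to WT_5, each set against the other 4, it was 5, 5, 6, 4 and 1, so WT_3 equalled TE_4. These 8 genes were grouped after their values had been seen. The SD of log2(TPM + 1) was larger in KO than in WT for 30 of the 44 genes, 68.2%, beside 70.1% of all genes tested.

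**Figure D5:**
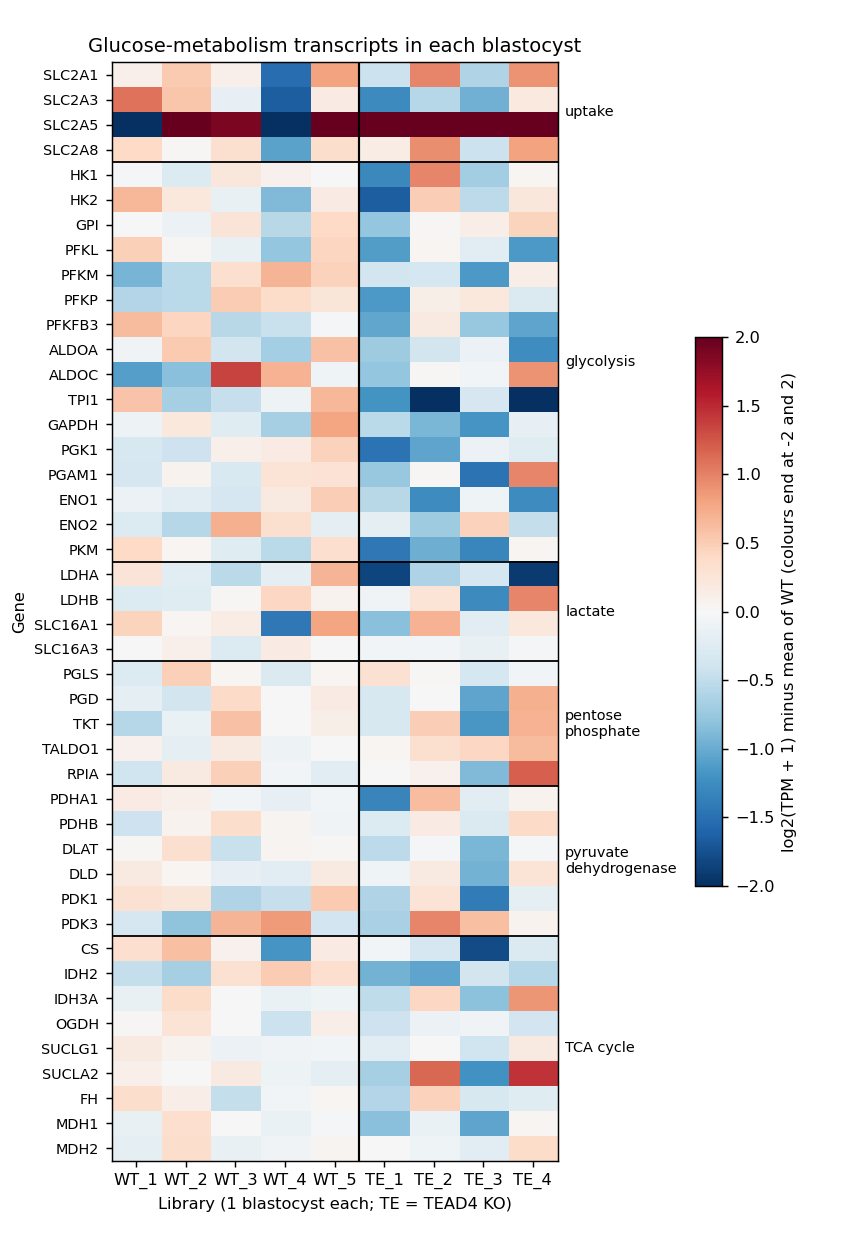
Log2(TPM + 1) minus the mean of the 5 WT blastocysts, for each of the 44 genes (rows, by pathway) in each library (columns, WT to the left of the black line and KO to the right), with colours ending at −2 and 2. TE_1 is mostly blue, and TE_3 is blue in most pentose phosphate and mitochondrial rows but not in *TALDO1* or *PDK3*. TE_4 is red in many of those rows, and *TPI1* and *LDHA* are blue in every KO column.

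Another 78 genes of sugar metabolism and its control were listed by function, also with earlier results of these data known. Of these, 77 were in the table and 72 were tested; 0 were called, and an unadjusted p under 0.05 from limma was reached by 6 with lower and 1 with higher means in KO, beside 3.83% and 2.07% of all genes tested. Non-overlapping values together with an unadjusted p under 0.05 were found in 3 of the 72, and non-overlapping values alone in 2.03% of all genes tested. *GBE1*, the glycogen branching enzyme, was at 22.4, 14.1, 14.9, 21.0 and 17.1 TPM across WT_1 to WT_5 and 4.19, 7.13, 7.97 and 5.56 TPM across TE_1 to TE_4, below every WT embryo in each KO embryo (log2 fold change of −1.40 with a standard error of 0.29, adjusted p = 0.266 from limma). *ME2*, the mitochondrial malic enzyme that makes pyruvate from malate, was at 7.65, 10.9, 9.11, 19.3 and 17.4 TPM across WT_1 to WT_5 and 6.75, 3.18, 3.32 and 4.62 TPM across TE_1 to TE_4 (log2 fold change −1.31, adjusted p = 0.557 from limma). *TKTL1*, a transketolase-like gene, was at 2.06, 0.367, 1.59, 1.70 and 1.15 TPM across WT_1 to WT_5 and 2.70, 4.30, 2.25 and 4.45 TPM across TE_1 to TE_4, above every WT embryo in each KO embryo (log2 fold change 0.91, adjusted p = 0.678 from limma).

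By function, an unadjusted p under 0.05 with a lower mean in KO was found in 1 of 6 other genes of uptake and phosphorylation, 0 of 9 of glycolysis and its control, 0 of 5 of gluconeogenesis, 1 of 6 of lactate and pyruvate handling, 0 of 6 of the pentose phosphate pathway, 0 of 6 of pyruvate dehydrogenase and its control, 2 of 14 of the TCA cycle and its malate and citrate branches, 1 of 10 of glycogen metabolism and 1 of 10 regulators. The regulators were mainly hypoxia-inducible factors with their oxygen sensors, *MYC* and the glucose-responsive *TXNIP*. *MYC*, a transcription factor that drives growth and glycolytic genes, was the regulator with an unadjusted p under 0.05, at 11.4, 7.51, 7.88, 18.3 and 16.6 TPM across WT_1 to WT_5 and 5.93, 6.51, 8.45 and 0.738 TPM across TE_1 to TE_4, with TE_3 inside the WT range and the other KO embryos below it (log2 fold change of −1.22 with a standard error of 0.50, adjusted p = 0.784 from limma). Its log2 fold change was −0.68 without TE_4. *HIF1A*, whose protein drives glycolytic genes at low oxygen, averaged 14.4 and 11.6 TPM in WT and KO (log2 fold change of −0.34 with a standard error of 0.38). Among the lineage markers, *GATA4* was below every WT embryo in each KO embryo, at 1.09 to 1.75 TPM in WT and 0.367 to 0.957 TPM in KO, and 1 of 3 hypoblast, 0 of 5 trophectoderm and 0 of 3 inner cell mass markers had a lower mean with an unadjusted p under 0.05. *GATA6*, the most abundant of the 3 hypoblast markers, was at 77.6, 79.0, 84.0, 84.6 and 93.6 TPM across WT_1 to WT_5 and 29.3, 146, 40.6 and 74.7 TPM across TE_1 to TE_4, with TE_2 above and the other KO embryos below every WT embryo (log2 fold change of −0.47 with a standard error of 0.38). *SOX17* averaged 14.8 and 5.51 TPM in WT and KO (log2 fold change of −1.12 with a standard error of 0.63). The summed hypoblast markers were between 81.5 and 133 TPM in WT, and the sums for TE_1 to TE_4 were 35.8, 148, 53.1 and 77.8 TPM. As in *HK1* and *PDHA1*, TE_1 and TE_3 were below and TE_2 above every WT embryo, but TE_4 was here below them too. The part of these markers in the differences above was not tested.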

How the data were processed

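The authors sequenced RNA of 5 WT and 4 *TEAD4* KO bovine blastocysts at D8, each as a library of its own. Per the labels, reads were processed with FastQC, fastp and kallisto; versions, annotation and genome build are not given in the sources used here. The authors deposited TPM for 21512 genes, which keep no read depth, and all 9 columns of values were used. The study's own test may have left out TE_4. That embryo is kept here, and values without it are given for some results only. Without TE_4 the log2 fold change was also −1.23 for *PKM*, −0.87 for *GAPDH*, −0.67 for *MDH1*, −0.43 for *PFKL* and −0.40 for *ALDOA*. Columns were assigned to a genotype by name, since the sample behind a column is not shown. The labels and the study's methods describe different RNA extraction and library kits, and the values do not show which was used. The labels give no batch and no sex. The study tested counts with DESeq2, which TPM do not allow.

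Genes with a median above 0.1 TPM were fitted with limma 3.58.1 in R 4.3.3 (trend, log2(TPM + 1), pseudocount 1 TPM), after the fit had been tested on simulated data. A fold change on this scale understates changes of low genes. Isoform shares and single genes were compared by exact permutation over all 126 splits of the embryos. The smallest p that this two-sided test can give is 0.00794. Python 3.11.15, pandas 2.3.3 and matplotlib 3.10.9 were used. Values in every library are given for members with non-overlapping genotypes or an unadjusted p under 0.05 from limma, and for described isoforms. They are also given for most members with the largest change of their step. *GPI*, *SLC16A3*, *PGD*, *DLAT*, *OGDH* and *FH* had the largest change of their step but are given by means or ranges only. A few others were named after their values had been seen. Members and lists were chosen with earlier results of these data known. All 44 symbols are in the RefSeq annotation of ARS-UCD2.0. Other settings tried were quantile normalization, size factors, a pseudocount of 0.1 TPM, limma without trend, all genes unfiltered, and each embryo left out. P-values measure only the spread between these embryos. Coordinates and sequences are not used here.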

Additional observations from a re-analysis of the deposited data

Results flagged for a closer look

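Within a genotype, a single embryo stood apart from the others by Dixon's test at the 95% level in 5 of the 112 groups of values tested (44 genes, *TEAD4* and 11 isoform shares, each in WT and in KO). Chance alone flags about 1 group in 20. WT_2 was high in *IDH3A*, at 517 TPM, while the other embryos of its genotype were between 363 and 405 TPM, and in *MDH1*, at 1014 TPM, while the other embryos of its genotype were between 725 and 803 TPM. In TE_4 the share of *PFKL* in phosphofructokinase transcripts was 87.3%, while the other embryos of its genotype were between 94.2 and 94.8%, and the share of *ALDOC* in aldolase transcripts was 6.56%, while the other embryos of its genotype were between 1.39 and 1.98%. In WT_4 the share of *SLC16A3* in lactate transporter transcripts was 1.84%, while the other embryos of its genotype were between 0.314 and 0.619%. The 2 values of TE_4 go with low levels of the main isoforms in that embryo (23.3 TPM of *PFKL* and 389.7 TPM of *ALDOA*, both the lowest of the 9 libraries), and that of WT_4 with the lowest *SLC16A1* (60.3 TPM).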

How the results depend on the processing

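The number of genes called in the whole table, 3, was 8 with a pseudocount of 0.1 TPM, 5 with size factors, 6 after quantile normalization, 5 without the variance trend, 2 with no filter on low values and 0 (without TE_1, among others) to 10 (without TE_3) when 1 embryo was left out. None of the 44 genes was called in any of these fits, and the smallest adjusted p of a member with another pseudocount, scaling or 1 embryo left out was 0.253, for *TPI1* without TE_3. With 1 embryo left out, 0 to 3 of the 44 genes had non-overlapping values: *ENO1*, *LDHA* and *TPI1* without TE_3, *DLAT*, *LDHA* and *SLC16A3* without WT_3, *CS* and *OGDH* without WT_4, *TALDO1* without TE_1, *PFKFB3* without TE_2 and *PKM* without TE_4, beside 2.36% to 5.66% of all genes. The number of the 44 with lower means in KO was 26 (without TE_1 and without TE_3) to 40 (without TE_4), and their median log2 fold change −0.33 (without TE_2) to −0.093 (without TE_1). The direction of 24 genes was the same under all 12 alternatives, *TPI1*, *GAPDH*, *PGK1*, *ENO1*, *PKM*, *LDHA* and *IDH2* among them. Those named were picked by an unadjusted p under 0.05 from limma in the same embryos, so their steady direction is no separate support. The direction of 20 genes turned under at least 1 alternative, and the cause was not tested.

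With size factors the log2 fold change turned to 0.014 for *GPI*, 0.032 for *LDHB*, 0.019 for *SLC16A1*, 0.039 for *PGLS*, 0.055 for *PDHB* and 0.048 for *IDH3A*, and after quantile normalization to 0.011 for *SLC16A3* and −0.0068 for *MDH2*. With 1 embryo left out (named in brackets), the log2 fold change ran from −0.17 (WT_4) to 0.48 (TE_3) for *SLC2A1*, −0.65 (TE_2) to 0.10 (TE_1) for *HK1*, −0.65 (TE_2) to 0.066 (TE_1) for *HK2*, −0.21 (TE_4) to 0.20 (TE_1) for *GPI*, −0.44 (TE_3) to 0.017 (TE_1) for *PFKP*, −0.27 (TE_4) to 0.36 (WT_3) for *ALDOC*, −0.74 (TE_4) to 0.079 (TE_3) for *PGAM1*, −0.36 (TE_4) to 0.39 (TE_3) for *LDHB*, −0.40 (WT_4) to 0.23 (TE_1) for *SLC16A1*, −0.13 (TE_1) to 0.10 (WT_2) for *PGLS*, −0.46 (TE_4) to 0.13 (TE_3) for *PGD*, −0.33 (TE_4) to 0.29 (TE_3) for *TKT*, −0.27 (TE_4) to 0.42 (TE_3) for *RPIA*, −0.49 (TE_2) to 0.16 (TE_1) for *PDHA1*, −0.13 (TE_4) to 0.094 (TE_3) for *PDHB*, −0.28 (TE_4) to 0.12 (TE_3) for *DLD*, −0.31 (TE_4) to 0.26 (TE_3) for *IDH3A*, −0.25 (TE_4) to 0.64 (TE_3) for *SUCLA2* and −0.10 (TE_4) to 0.11 (WT_2) for *MDH2*. The isoform shares with non-overlapping values numbered 0 to 2 (without TE_3), and the KO minus WT difference in percentage points ran from −5.65 (WT_4) to 1.46 (WT_1) for *HK2*, −1.77 (WT_4) to 2.28 (TE_4) for *PFKL*, −1.64 (TE_4) to 1.13 (WT_4) for *PFKM*, −0.832 (WT_1) to 0.637 (WT_4) for *PFKP*, −0.585 (TE_4) to 1.34 (WT_3) for *ALDOC*, −0.0310 (TE_3) to 0.0187 (WT_3) for *ENO2* and −0.274 (TE_1) to 0.132 (WT_4) for *SLC16A3*. No paired analysis was possible because the labels give no number to an embryo of each genotype in common and each library is a separate embryo. TPM keeps no read depth, so the precision of low values such as those of *ENO2*, *SLC16A3*, *PFKM* and *PFKP* is unknown.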
